A study of Mus musculus with 25 samples.

Results

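The fecal bacteria of ovariectomised mice that had received a fecal microbiota transplant (OVX+FMT, replicates 1 to 5) were compared with those of sham-operated mice (Sham, replicates 1 to 5), to describe what stayed different from sham after the transplant. These were 10 of the 25 libraries of the study, chosen by the group names in the labels and in the column headers of the count table. The study's title speaks of osteoporosis, the gut microbiota, the metabolite TMAO and a traditional decoction, and its other groups were untreated ovariectomy (OVX), a vehicle group (OVX+PBS) and OVX+GEX, a treatment that the labels do not spell out. All mice were of strain C57BL/6, and no age, cage, litter or transplant donor is given in the labels. Every mouse is labelled male. That cannot be squared with ovariectomy, the usual reading of OVX, which is kept here. Sham mice carried neither ovariectomy nor transplant, so the comparison takes both together. The levels in OVX and OVX+PBS are given beside part of the results as the state without a transplant.

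Full-length 16S ribosomal RNA gene amplicons identify bacteria by an amplicon sequence variant (ASV), a distinct sequence that is assigned to a genus and species by likeness to known relatives. In the mouse gut most such bacteria are anaerobes of the Firmicutes, above all the families Lachnospiraceae and Oscillospiraceae, which ferment fibre to short-chain fatty acids such as butyrate, and of the Bacteroidetes, which break down plant and host glycans. Some gut bacteria cleave choline or carnitine to trimethylamine, which the liver oxidises to TMAO, and some remodel bile acids. A fecal transplant places the community of a donor in the gut of a recipient.

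The 10 libraries held 9484 to 22404 counts, and a count of 0 in them allows a share of up to 0.0134% to 0.0316% (3 counts of the total, counting error only). They held 1142 of the 1555 ASVs of the table and 103 of its 110 genera. The community was that of mouse feces: Firmicutes, Bacteroidetes and Verrucomicrobia held nearly all counts, and genera known as reagent contaminants held 3 counts in a single library, Sham replicate 3. A share cannot tell fewer cells of one taxon from more cells of the others. OVX+FMT replicate 4 stood apart from its group. Its mean Bray-Curtis distance (0 for identical, 1 for fully different communities) was 0.593 to the other 4 OVX+FMT libraries and 0.495 to the Sham libraries, while the other 4 lay 0.354 from each other on average. The community measures, phyla, families and genera are therefore given with and without this library, which no label sets apart from its group.

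ASV richness and diversity stayed lower than in Sham after the transplant. In 8498 reads, the expected number of ASVs was 320, 346, 357, 416 and 350 in Sham replicates 1 to 5 and 266, 230, 221, 299 and 201 in OVX+FMT replicates 1 to 5. The groups did not overlap, and OVX+FMT replicate 4 was the highest of its group. Richness was 358 ± 35.1 in Sham and 243 ± 39.0 in OVX+FMT (SD, n = 5), a difference of -115 ASVs (exact two-sided permutation p = 0.00794, the smallest that splits of 5 against 5 allow; adjusted p = 0.0317 over 4 community measures). Without OVX+FMT replicate 4 the difference was -128.5 ASVs (adjusted exact p = 0.0106, over a range of 0.0106 to 0.0635 when single libraries were left out). The adjusted p missed 0.05, at 0.0635, when Sham replicate 2, 4 or 5 was left out.

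The Shannon index, which weighs the number of ASVs and the evenness of their shares, was 4.91 ± 0.156 in Sham and 4.27 ± 0.389 in OVX+FMT (SD, n = 5; natural logarithm; exact permutation p = 0.0238, adjusted p = 0.0423). In OVX+FMT replicates 1 to 5 it was 4.15, 4.33, 4.08, 4.90 and 3.89, so that only replicate 4 lay inside the Sham range of 4.71 to 5.05. Without replicate 4 the mean was 4.11 ± 0.182 (n = 4) and the adjusted exact p was 0.0106. The adjusted p was 0.0635 when OVX+FMT replicate 1, 2, 3 or 5 or Sham replicate 2, 4 or 5 was left out. Untreated OVX mice had a richness of 252.3 ± 39.2 and a Shannon index of 4.35 ± 0.324, and OVX+PBS mice of 212 ± 79.5 and 4.04 ± 0.408 (SD, n = 5 each).

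**Figure D1:**
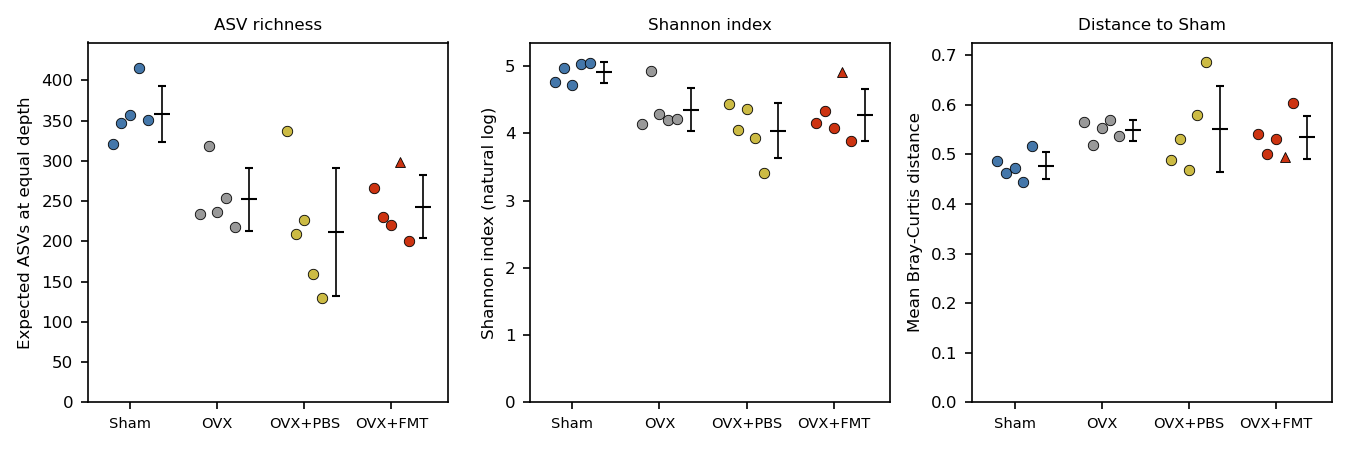
ASV richness in 8498 reads, Shannon index (natural logarithm) and mean distance (Bray-Curtis) from the Sham libraries, per library, in Sham, OVX, OVX+PBS and OVX+FMT. Points are libraries, the triangle is OVX+FMT replicate 4, and the bar beside each group is its mean ± SD (n = 5); all 5 OVX+FMT libraries lie below all 5 Sham libraries in richness, and replicate 4 lies among the Sham libraries in Shannon index.

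The share of the variation in Bray-Curtis distances of ASV shares that went with the grouping (R2 of a permutational analysis of distances) was 0.236 (exact permutation p = 0.0317, adjusted p = 0.0423), and 0.357 without OVX+FMT replicate 4 (adjusted exact p = 0.0106). The adjusted p rose to between 0.0529 and 0.0873 when any other library except Sham replicate 3 was left out. Mean distances to the Sham libraries were 0.477 ± 0.0275 among the Sham libraries themselves, 0.534 ± 0.0438 in OVX+FMT, 0.548 ± 0.0208 in OVX and 0.551 ± 0.0862 in OVX+PBS (SD, n = 5). These distances share the Sham libraries and were not tested. On genus shares, OVX+FMT replicate 4 lay 0.263 from the Sham libraries, inside the 0.249 to 0.294 of the Sham libraries among themselves, while the other 4 OVX+FMT libraries lay 0.339 to 0.522 away.

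**Figure D2:**
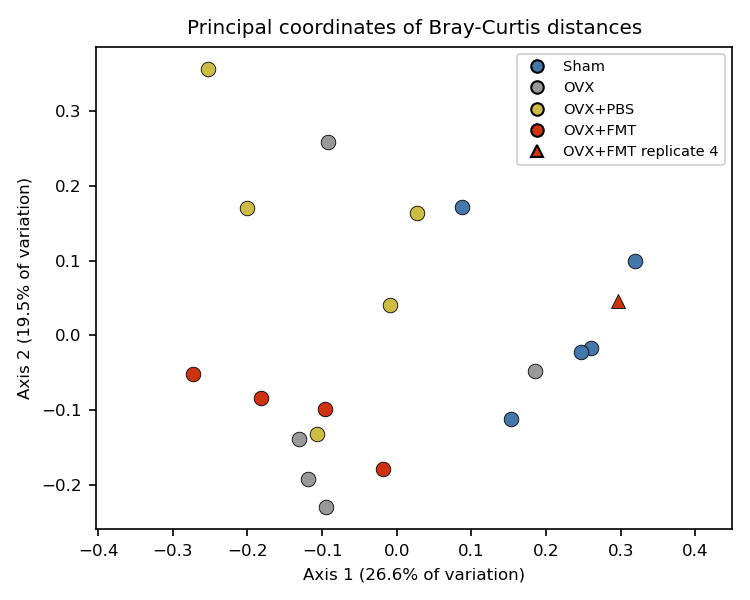
Principal coordinates of Bray-Curtis distances between ASV shares of the Sham, OVX, OVX+PBS and OVX+FMT libraries; axis 1 holds 26.6% and axis 2 19.5% of the variation, and the triangle is OVX+FMT replicate 4. On axis 1 the Sham libraries sit between 0.0876 and 0.320, OVX+FMT replicate 4 at 0.296 and the other OVX+FMT libraries between -0.273 and -0.0190.

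No phylum share passed its test. Firmicutes held 80.8% ± 6.73 of counts in Sham and 69.4% ± 9.24 in OVX+FMT, Bacteroidetes 14.8% ± 7.03 and 24.6% ± 11.2, and Verrucomicrobia, here the mucin user Akkermansia and relatives, 3.34% ± 2.64 and 4.26% ± 3.14 (SD, n = 5). The p-values were as follows (exact permutation p = 0.0635, 0.127 and 0.603; adjusted over 3 phyla 0.190, 0.190 and 0.603). Without OVX+FMT replicate 4 the OVX+FMT means were 66.5% ± 7.59, 28.0% ± 9.36 and 3.85% ± 3.46 (SD, n = 4; adjusted exact p = 0.0952, 0.0952 and 0.825). On the log2 scale, the Firmicutes to Bacteroidetes ratio was 1.36, 2.97, 2.66, 2.96 and 2.75 in Sham replicates 1 to 5 and 1.01, 2.24, 1.35, 2.91 and 0.64 in OVX+FMT replicates 1 to 5. Sham replicate 1 was low in its group and OVX+FMT replicate 4 high, and the means of 2.54 ± 0.67 and 1.63 ± 0.93 differed by -0.91 (SD, n = 5; exact permutation p = 0.0873, adjusted p = 0.0873). Without OVX+FMT replicate 4 the difference of -1.23 passed (adjusted exact p = 0.0397, over a range of 0.0397 to 0.206 when single libraries were left out).

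Among 28 families tested, Lachnospiraceae were lower and Bifidobacteriaceae higher in OVX+FMT than in Sham, by edgeR's quasi-likelihood test at an adjusted p of 0.05 (2 of 28, 7.14%, with 3.57% in each direction). DESeq2 and limma each called 3 families (10.7%), or 9 (32.1%) and 7 (25%) without OVX+FMT replicate 4, and 4 had an unadjusted edgeR p under 0.05. Lachnospiraceae, a family rich in butyrate producers, held 27.4, 36.5, 23.7, 33.3 and 46.2% of counts in Sham replicates 1 to 5 and 6.17, 9.78, 7.38, 37.3 and 3.29% in OVX+FMT replicates 1 to 5. In 4 of the 5 OVX+FMT libraries the family lay far below the lowest Sham library, and OVX+FMT replicate 4, at 37.3% (95% Wilson interval 36.4% to 38.3%), lay inside the Sham range. The means were 33.4% ± 8.71 and 12.8% ± 13.9 (SD, n = 5; log2 fold change -1.65, SE 0.49, edgeR adjusted p = 0.0392), against 18.5% ± 11.7 in OVX and 14.3% ± 4.20 in OVX+PBS. Without replicate 4 the OVX+FMT mean was 6.65% ± 2.70 and the log2 fold change -2.48 (edgeR adjusted p = 0.000147; 4.92e-13 to 0.234 over the alternatives run).

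Bifidobacteriaceae, saccharolytic bacteria here consisting of Bifidobacterium alone, were at 0 in Sham replicates 1, 2, 4 and 5 and at 0.0173% (3 counts) in replicate 3, and at 0.263, 0.180, 0.656, 0 and 0.233% in OVX+FMT replicates 1 to 5. They were at 0 in every OVX and OVX+PBS library, and nearly all counts in the 10 libraries carried the name Bifidobacterium pseudolongum subsp. globosum. In these 4 groups, only OVX+FMT replicates 1, 2, 3 and 5 and Sham replicate 3 reached the 3 counts of the filter. Entry of the family into the test thus leaned on the group where it is high, which limits the call. The log2 fold change was 5.62 (SE 1.62, edgeR adjusted p = 0.0392; 2.38e-06 to 0.129 over the alternatives run), and 5.94 without OVX+FMT replicate 4 (edgeR adjusted p = 0.0133). Leaving out OVX+FMT replicate 1, 2, 3 or 5 or Sham replicate 1, 2, 4 or 5 took both families past 0.05, to edgeR adjusted p-values of 0.0827 to 0.118. Neither was called with TMMwsp scaling or with no filter. With a minimum of 10 counts Lachnospiraceae was not called, and Bifidobacteriaceae fell to the filter and was not tested. Plain library totals kept Bifidobacteriaceae only.

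With all libraries no family had groups that did not overlap. Without OVX+FMT replicate 4 there were 7 (25% of the families tested; 17.9% higher and 7.14% lower in OVX+FMT): Lachnospiraceae and Clostridiaceae below Sham, and Bifidobacteriaceae, Lactobacillaceae, Peptostreptococcaceae, Streptococcaceae and Turicibacteraceae above it. Oscillospiraceae, the other large clostridial family, held 24.2% ± 1.85 in Sham and 21.7% ± 4.63 in OVX+FMT (SD, n = 5; log2 fold change -0.30, SE 0.34, edgeR adjusted p = 0.530; -0.21 and 0.707 without replicate 4), and the groups overlapped.

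At the genus level, edgeR called 1 of 81 genera with all libraries (1.23%) and 8 without OVX+FMT replicate 4 (9.88%; 3.7% higher and 6.17% lower). All 5 genera called lower without it were Lachnospiraceae: Kineothrix, Lachnoclostridium, Schaedlerella, Marvinbryantia and Butyribacter. DESeq2 called 6 (7.41%) and limma 2 genera (2.47%) with all libraries, and 14 had an unadjusted edgeR p under 0.05; without replicate 4, DESeq2 called 15 (18.5%) and limma 17 (21%). Of the 23 genera of the Lachnospiraceae, estimates were higher for 5 and lower for 18 with all libraries (4 and 19 with plain library totals), with a median log2 fold change of -0.87 beside 0.13 over all 81 genera. Without replicate 4 these were 2 and 21, with a median of -2.31 beside -0.37 (-2.10 and -0.31 with genera at 0 in a group set to their bounds). The family list was chosen with these results known, and no test was made over it.

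Kineothrix, a butyrate producer, held 9.10, 7.77, 4.81, 4.19 and 18.5% of counts in Sham replicates 1 to 5 and 0.589, 1.43, 0.715, 10.3 and 0.329% in OVX+FMT replicates 1 to 5. Replicate 4 lay among the Sham libraries and the other 4 lay below all of them. With all libraries the log2 fold change was -1.40 (SE 0.73, edgeR adjusted p = 0.276), and without replicate 4 it was -3.25 (edgeR adjusted p = 0.00167; 3.41e-06 to 0.498 over the alternatives run). Of its 33 ASVs tested, 29 had a lower and 4 a higher estimate in OVX+FMT, beside 228 and 147 of all 379. The ASVs of Kineothrix may not be independent. Kineothrix averaged 4.12% ± 3.57 in OVX and 2.37% ± 1.75 in OVX+PBS (SD, n = 5).

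Lachnoclostridium, most of it named for the bile acid dehydroxylating species scindens, held 4.03, 7.26, 4.19, 12.5 and 6.03% in Sham replicates 1 to 5 and 0.272, 0.474, 0.248, 5.56 and 0.0608% in OVX+FMT replicates 1 to 5. All OVX+FMT libraries except replicate 4 lay below the lowest Sham library. The log2 fold change was -2.05 (SE 1.01, edgeR adjusted p = 0.276) and -4.44 without replicate 4 (edgeR adjusted p = 0.00402; 2.75e-05 to 0.464 over the alternatives run). The counts named scindens averaged 4.94% ± 2.88 in Sham, and 0.155% ± 0.0803 in the 4 OVX+FMT libraries other than replicate 4, which held 3.33%. Lachnoclostridium averaged 3.47% ± 3.87 in OVX and 1.29% ± 1.16 in OVX+PBS (SD, n = 5).

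Schaedlerella, a genus of the mouse gut, held 0.842, 4.92, 2.03, 1.68 and 2.05% in Sham replicates 1 to 5 and 0.125, 0.218, 0.328, 3.14 and 0% in OVX+FMT replicates 1 to 5. Here too only replicate 4 overlapped with Sham (log2 fold change -1.35, SE 1.14, edgeR adjusted p = 0.603; -3.65 and 0.0393 without it; 0.0102 to 0.819 over the alternatives run). Schaedlerella averaged 1.22% ± 1.59 in OVX and 0.330% ± 0.398 in OVX+PBS (SD, n = 5). Butyribacter, a butyrate producer, held 0.360, 0.0307, 0.576, 0.643 and 0.523% in the Sham replicates and was at 0 in every OVX+FMT library except replicate 4, which at 1.35% was above every Sham library. Without that library Butyribacter was at least 19.6-fold lower than in Sham, taking 3 counts in a library as the floor (edgeR adjusted p = 0.0143); with it the log2 fold change was -0.40 (SE 1.65, edgeR adjusted p = 0.936; 0.00129 to 0.995 over the alternatives run). In the groups without a transplant Butyribacter was also low, at 0.0196% ± 0.0437 in OVX and 0.0165% ± 0.0228 in OVX+PBS (SD, n = 5).

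Marvinbryantia, a genus that makes acetate from formate or carbon dioxide, was the exception in which replicate 4 also lay below Sham. It held 0.596, 1.07, 0.271, 1.19 and 1.56% in Sham replicates 1 to 5, 0.211% in OVX+FMT replicate 4 and 0 counts in the other 4 OVX+FMT libraries. The groups did not overlap (log2 fold change -4.19, SE 1.32, edgeR adjusted p = 0.0714; 2.16e-09 to 0.211 over the alternatives run). Both DESeq2 (adjusted p = 0.00105) and limma (adjusted p = 0.000801) called it with all libraries. Without replicate 4 it was at least 43.1-fold lower (edgeR adjusted p = 0.000138). OVX and OVX+PBS libraries averaged 0.356% ± 0.269 and 0.0766% ± 0.0616 (SD, n = 5).

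**Figure D3:**
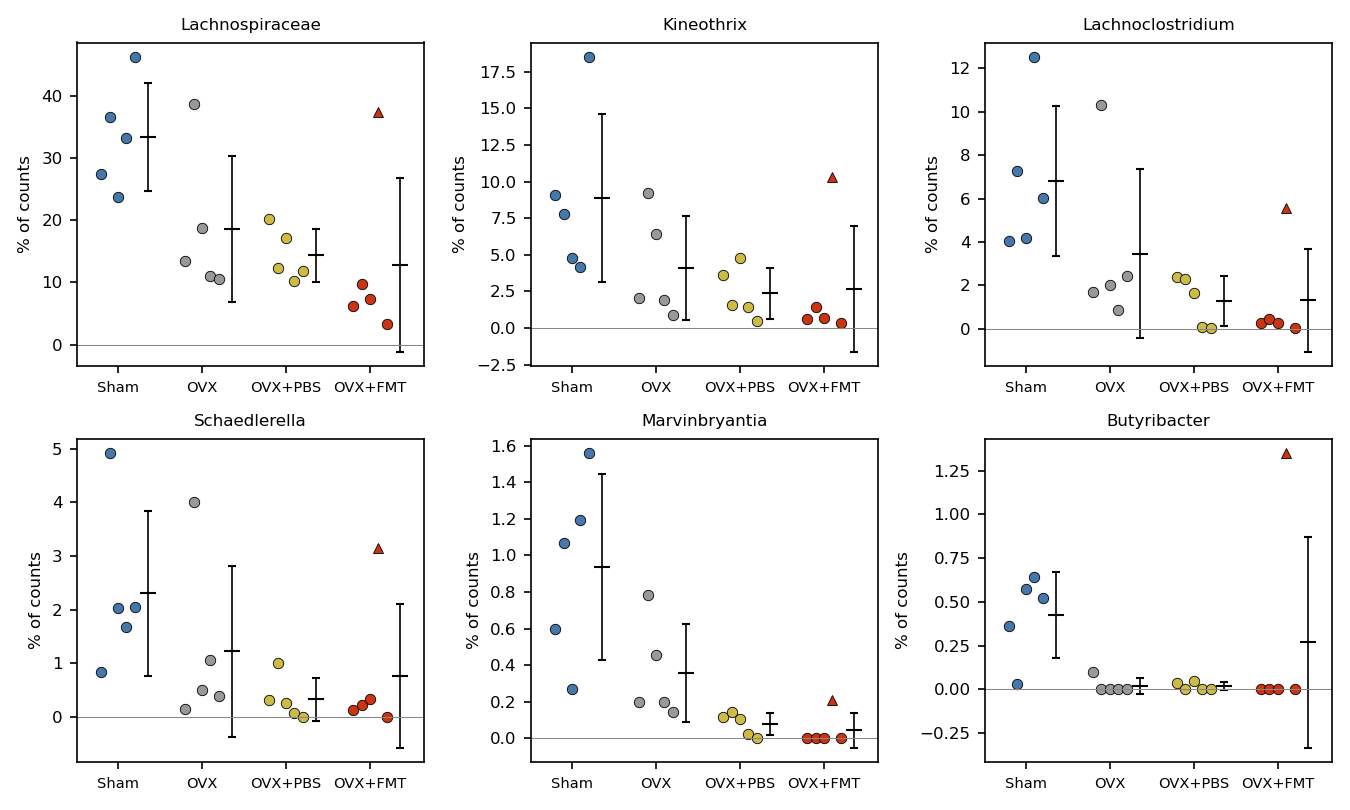
Percent of counts per library for Lachnospiraceae and 5 of its genera in Sham, OVX, OVX+PBS and OVX+FMT; points are libraries, the triangle is OVX+FMT replicate 4, the bar beside each group is its mean ± SD (n = 5), and the thin line marks 0. Circles of OVX+FMT lie below the Sham libraries in every panel, and the triangle lies among or above them in all panels except that of Marvinbryantia, where it is at 0.211%.

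With all libraries, 5 genera had groups that did not overlap (6.17% of those tested; 1.23% higher and 4.94% lower), and without replicate 4 there were 18 (22.2%; 7.41% higher and 14.8% lower). Besides Marvinbryantia, those lower with all libraries were Mediterraneibacter, Faecalicatena and Clostridium, none of them past 0.05 in edgeR. Faecalicatena reached the filter's 3 counts in all 5 Sham libraries, so its entry could rest on the group where it is high. In OVX and OVX+PBS, Mediterraneibacter averaged 0.544% ± 0.206 and 0.483% ± 0.495 (SD, n = 5). Faecalicatena averaged 0.0328% ± 0.0365 and 0.0178% ± 0.0398 there, and Clostridium 0.0646% ± 0.0925 and 0.00711% ± 0.0159. Mediterraneibacter, mostly named for the mucin-foraging gnavus, held 0.740, 1.33, 0.858, 0.745 and 0.661% in Sham replicates 1 to 5 and 0.263, 0.616, 0.109, 0.411 and 0.0608% in OVX+FMT replicates 1 to 5 (log2 fold change -1.12, SE 0.66, edgeR adjusted p = 0.370; 0.158 without replicate 4). Faecalicatena averaged 0.105% ± 0.0754 in Sham (n = 5) and was at 0 in all 5 OVX+FMT libraries, at least 4.45-fold lower (edgeR adjusted p = 0.0745; 0.0668 without replicate 4). Clostridium averaged 0.330% ± 0.216 and 0.0513% ± 0.0354 (SD, n = 5; edgeR adjusted p = 0.486; 0.324 without replicate 4), and all its OVX+FMT libraries lay at or below 0.0844%, under the lowest Sham library at 0.0888%.

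Among the other genera below Sham without replicate 4 alone, Lacrimispora, a Lachnospiraceae genus, held 0.935% to 1.55% in Sham and 0.0203% to 0.370% in the 4 other OVX+FMT libraries, with replicate 4 above both at 2.53%. Its log2 fold change was -0.64 (edgeR adjusted p = 0.858), and -2.44 without replicate 4 (edgeR adjusted p = 0.0668; 0.0138 to 0.950 over the alternatives run). Hungatella, whose members include choline users, averaged 0.859% ± 0.217 in Sham (n = 5) and 0.0893% ± 0.0718 in the 4 other OVX+FMT libraries, with replicate 4 at 1.13%. Enterocloster averaged 0.383% ± 0.148 and 0.0527% ± 0.0396, with replicate 4 at 0.685%. The bracketed genus [Clostridium] of the Oscillospiraceae averaged 0.471% ± 0.156 and 0.128% ± 0.0882, with replicate 4 at 0.380%. The edgeR adjusted p-values of Hungatella, Enterocloster and [Clostridium] were 0.608 to 0.914 with all libraries and 0.0889 to 0.286 without replicate 4. In OVX and OVX+PBS, Lacrimispora averaged 1.10% ± 1.42 and 0.323% ± 0.252 (SD, n = 5). Hungatella averaged 0.678% ± 0.750 and 0.122% ± 0.0999 there, and Enterocloster 0.351% ± 0.503 and 0.0663% ± 0.105.

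Lactic acid bacteria and bifidobacteria were the group on the higher side. All 4 genera tested had higher estimates in OVX+FMT, under each of 4 scalings, with a median log2 fold change of 2.48 beside 0.13 over all genera, and together they held 12.0% ± 6.51 of counts in Sham and 25.6% ± 9.28 in OVX+FMT (SD, n = 5). Ligilactobacillus alone made up nearly all of this share, at 11.9% in Sham and 24.9% in OVX+FMT. None of the 4 genera was called with all libraries. Without replicate 4, 2 of the 4, Ligilactobacillus and Bifidobacterium, were called, where 3.7% of all genera were called higher. Ligilactobacillus, all of it named for the mouse gut species murinus, held 7.42, 12.5, 21.0, 13.9 and 4.46% in Sham replicates 1 to 5 and 30.2, 27.6, 22.8, 10.2 and 33.5% in OVX+FMT replicates 1 to 5. Only replicate 4 overlapped with Sham. The log2 fold change was 1.84 (SE 0.57, edgeR adjusted p = 0.0714) and 1.89 without replicate 4 (edgeR adjusted p = 0.0281; 0.00297 to 0.251 over the alternatives run). With all libraries and plain library totals the log2 fold change was 1.07. Estimates were higher for 9 of its 9 ASVs tested, beside 147 of all 379. These ASVs may be 16S copies of 1 genome and are not independent. Ligilactobacillus averaged 24.8% ± 12.6 in OVX and 15.6% ± 8.71 in OVX+PBS (SD, n = 5).

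Bifidobacterium was the same set of counts as its family, 0 or 3 in each Sham library and 59, 19, 66, 0 and 46 in OVX+FMT replicates 1 to 5. Its entry into the test leaned on the OVX+FMT libraries in the same way. At the genus level its log2 fold change was 6.31 (SE 1.85, edgeR adjusted p = 0.0714) and 6.46 without replicate 4 (edgeR adjusted p = 0.0143; 6.92e-07 to 0.197 over the alternatives run). Lactobacillus, with 0.173% ± 0.136 in Sham and 0.463% ± 0.359 in OVX+FMT, and Lactococcus, with at most 8 counts in a library, made up the rest of the list (edgeR adjusted p = 0.233 and 0.309; 0.122 and 0.178 without replicate 4).

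Lawsonibacter was the only genus edgeR called with all libraries, and it was higher in OVX+FMT than in Sham. It is a butyrate-forming relative of Flavonifractor, and held 0.380, 0.266, 0.0633, 0.620 and 0.336% in Sham replicates 1 to 5 and 0.326, 1.69, 1.15, 0.211 and 3.10% in OVX+FMT replicates 1 to 5. OVX+FMT replicates 2, 3 and 5 lay above all Sham libraries and replicates 1 and 4 lay inside the Sham range. The log2 fold change was 2.94 (SE 0.75, edgeR adjusted p = 0.0420; 2.43e-05 to 0.211 over the alternatives run), and 2.96 without replicate 4 (edgeR adjusted p = 0.00560). The call was lost without OVX+FMT replicate 2 or 5 or any single Sham library (edgeR adjusted p = 0.0610 to 0.195). Untreated OVX libraries averaged 1.11% ± 0.586 and OVX+PBS libraries 1.73% ± 0.368, beside 0.333% ± 0.201 in Sham and 1.29% ± 1.18 in OVX+FMT (SD, n = 5).

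Adlercreutzia, an equol-forming genus of the Eggerthellaceae, was the only genus with all OVX+FMT libraries above all Sham libraries. It held 0.401, 0.441, 0.461, 0.553 and 0.434% in Sham replicates 1 to 5 and 0.857, 0.749, 1.18, 1.52 and 0.557% in OVX+FMT replicates 1 to 5. In this genus replicate 4 was the library farthest from Sham, and replicate 5 lay just above the highest Sham library. The log2 fold change was 1.64 (SE 0.53, edgeR adjusted p = 0.0739; 0.00949 to 0.338 over the alternatives run), and DESeq2 called it (adjusted p = 0.0149). Without replicate 4 it was 1.28 (edgeR adjusted p = 0.114), and DESeq2 (adjusted p = 0.00949) and limma (adjusted p = 0.0336) called it. Adlercreutzia averaged 0.713% ± 0.325 in OVX and 0.599% ± 0.265 in OVX+PBS (SD, n = 5).

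Romboutsia and Turicibacter, genera known from the small intestine, lay above Sham in every OVX+FMT library except replicate 4, where both were at 0. Turicibacter held 0.288, 0.143, 0.0806, 0.0625 and 0% in Sham replicates 1 to 5 and 0.745, 0.322, 0.517, 0 and 0.400% in OVX+FMT replicates 1 to 5 (log2 fold change 2.51, SE 1.11, edgeR adjusted p = 0.233; 0.0679 without replicate 4; 0.00638 to 0.579 over the alternatives run). DESeq2 (adjusted p = 0.00638) and limma (adjusted p = 0.0176) called Turicibacter without replicate 4. Turicibacter averaged 0.162% ± 0.116 in OVX and 0.122% ± 0.103 in OVX+PBS, and Romboutsia 0.195% ± 0.177 and 0.0695% ± 0.0833 (SD, n = 5). Romboutsia held at most 0.0820% in Sham and 0.123% to 0.377% in the 4 other OVX+FMT libraries (log2 fold change 3.69, SE 1.42, edgeR adjusted p = 0.133, and 0.0668 without replicate 4). DESeq2 called Romboutsia (adjusted p = 0.0308, and 0.00297 without replicate 4). Duncaniella, the one genus of the glycan-degrading Muribaculaceae here, held 13.2% ± 5.91 in Sham and 22.6% ± 10.6 in OVX+FMT (SD, n = 5), with overlapping groups. Its log2 fold change was 1.60 (SE 0.71, edgeR adjusted p = 0.233), and 1.65 without replicate 4 (edgeR adjusted p = 0.114). With all libraries it was 0.78 with plain library totals, and the same counts gave 0.90 at the family level (edgeR adjusted p = 0.396). Estimates were higher for 15 of its 15 ASVs tested, beside 147 of all 379, and these ASVs may not be independent. Duncaniella averaged 23.3% ± 13.1 in OVX and 36.2% ± 17.0 in OVX+PBS (SD, n = 5).

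**Figure D4:**
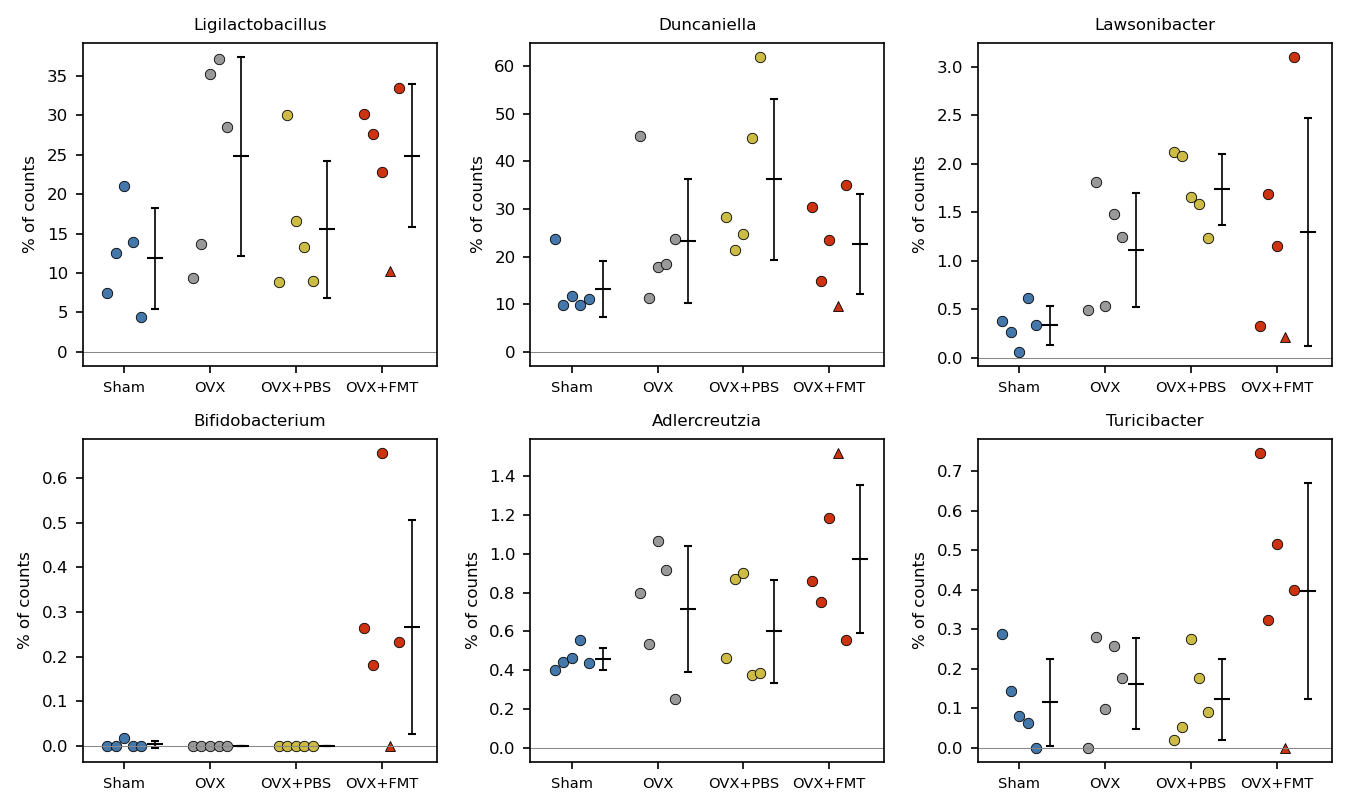
Percent of counts per library for 6 genera with higher estimates in OVX+FMT than in Sham, in Sham, OVX, OVX+PBS and OVX+FMT; points are libraries, the triangle is OVX+FMT replicate 4, the bar beside each group is its mean ± SD (n = 5), and the thin line marks 0. Bifidobacterium is at 0 in all OVX and OVX+PBS libraries, and the triangle lies at or below the Sham range or inside it in every panel except that of Adlercreutzia, where it is the highest point at 1.52%.

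The remaining lists held few calls or none. Of 8 genera tested from the butyrate producer list, which did not hold Lawsonibacter, 3 had higher and 5 lower estimates (1 and 7 with plain library totals) and none was called; their summed share was 14.8% ± 6.72 in Sham and 6.31% ± 7.44 in OVX+FMT, or 3.02% ± 1.11 without replicate 4, which held 19.5%. Without it 2 of the 8, Kineothrix and Butyribacter, were called lower, where 6.17% of all genera were. Of 5 trimethylamine-linked genera, the estimate was higher for 1 and lower for 4, beside 45 and 36 of all 81 genera. Without replicate 4, 1 of the 5, Lachnoclostridium, was called lower, where 6.17% of all genera were. The summed share of the list was 5.74, 9.25, 5.91, 14.3 and 7.62% in Sham replicates 1 to 5 and 0.531, 1.15, 1.08, 7.29 and 0.405% in OVX+FMT replicates 1 to 5. It was 4.78% ± 4.27 in OVX and 2.66% ± 1.51 in OVX+PBS, beside 2.09% ± 2.92 in OVX+FMT (SD, n = 5). Only replicate 4 overlapped with Sham in the summed share. Most of that share in Sham was Lachnoclostridium, at 6.80% beside 8.57% for the list. Whether these bacteria carried the genes to form trimethylamine was not measured.

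Oscillospiraceae and Ruminococcaceae genera had 13 higher and 5 lower estimates among 18 tested with TMM scaling (median log2 fold change 0.49) and 9 of each with plain library totals (median -0.11). Without replicate 4 they were 9 of each with TMM too (median -0.01), with no call with or without replicate 4. Among them, Ruminococcus held 5.50% ± 1.76 in Sham and 7.23% ± 4.08 in OVX+FMT (SD, n = 5; edgeR adjusted p = 0.434; 0.324 without replicate 4). Acetivibrio, a fibre degrader, held 8.11% ± 1.96 and 5.36% ± 2.27; its log2 fold change was -0.04 (SE 0.52, edgeR adjusted p = 0.944; -0.31 and 0.753 without replicate 4), changed sign with TMMwsp scaling and was -0.60 with plain library totals. Plant-fibre degrading clostridia had 3 higher and 3 lower estimates among 6, mucin users 3 and 2 among 5, Erysipelotrichaceae with relatives 2 and 3 among 5, acetogens 1 and 2 among 3 and the bile acid dehydroxylating list 1 and 1 among 2, with no call with all libraries. The bile acid list tested Clostridium and Eubacterium and did not hold Lachnoclostridium, so the counts named scindens lie outside it. Without replicate 4, Lachnoclostridium was called lower on the plant-fibre list and Marvinbryantia on that of the acetogens. With plain library totals the plant-fibre list had 1 higher and 5 lower and the acetogens 0 and 3. Akkermansia averaged 3.34% ± 2.64 in Sham and 4.25% ± 3.13 in OVX+FMT, and Bacteroides 1.25% ± 0.882 and 1.52% ± 0.839 (SD, n = 5; edgeR adjusted p = 0.565 and 0.434; 0.753 and 0.305 without replicate 4). Sulfate reducers held 3 counts in Sham replicate 2 and none in OVX+FMT. Shigella, the one enterobacterial genus tested, was at 0 in Sham. In OVX+FMT it had 5 and 17 counts in replicates 3 and 5, at most 0.0861%, and none in the others. Its edgeR adjusted p was 0.233, and 0.122 without replicate 4. DESeq2 called it (adjusted p = 6.66e-05) with a fitted log2 fold change of 20.5, a value without bound against a group at 0. With a floor of 3 counts Shigella was at least 1.11-fold higher. OVX+PBS libraries averaged 0.276% ± 0.480 (SD, n = 5).

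**Figure D5:**
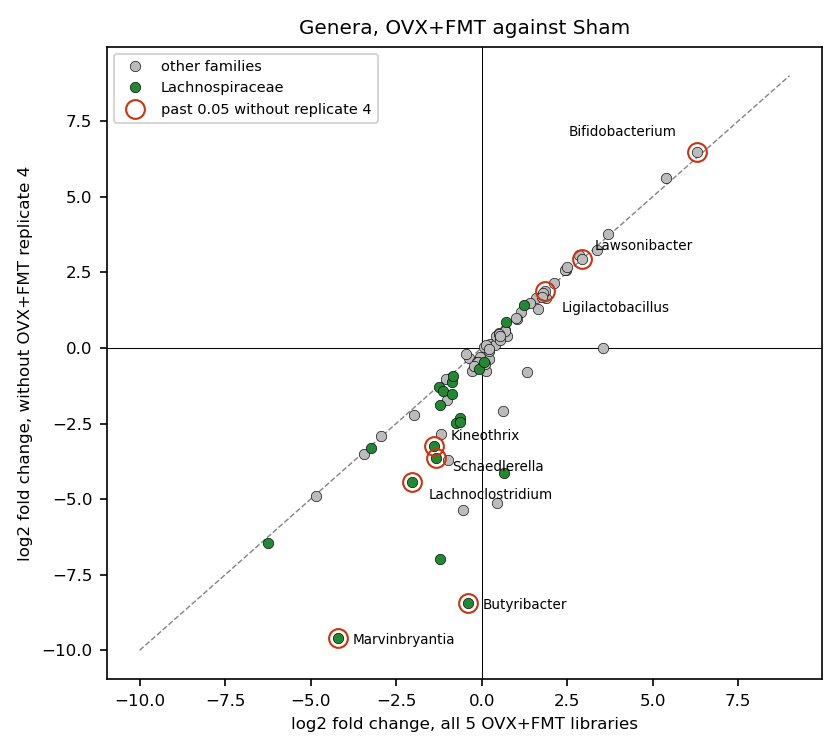
Fitted log2 fold changes of genera, OVX+FMT against Sham, with all 5 OVX+FMT libraries (x axis) and without OVX+FMT replicate 4 (y axis); each point is a genus, green points are Lachnospiraceae, red rings mark genera past an edgeR adjusted p of 0.05 without replicate 4, and the dashed line marks equal values. The 5 ringed Lachnospiraceae lie below the dashed line and the 3 ringed genera on the higher side lie close to it; values of genera at 0 in a group, such as Marvinbryantia and Butyribacter without replicate 4, are fitted values and no bounds.

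The median over genera moved with the scaling. TMM scaling factors were 1.29 to 1.51 in Sham and 0.53 to 1.17 in OVX+FMT, and the median log2 fold change over 81 genera was 0.13 with TMM, 0.33 with TMMwsp and -0.42 with plain library totals. With TMM, 45 genera had higher and 36 lower estimates, against 32 and 49 with plain totals. Of the genera named by the selection rule, Acetivibrio alone changed sign among the 4 scalings, and the estimate for Lawsonibacter was 1.95 with plain totals, where no genus was called.

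Single ASVs named the variants that were seen in Sham and not after the transplant. Of 379 ASVs tested, edgeR called 4 (1.06%; 0.264% higher and 0.792% lower), DESeq2 11 (2.9%) and limma 12 (3.17%), and 72 had an unadjusted edgeR p under 0.05. The groups did not overlap in 13 ASVs (3.43%; 1.06% higher and 2.37% lower), and without OVX+FMT replicate 4 in 30 (7.92%; 3.43% higher and 4.49% lower). The 3 called lower were present in all 5 Sham libraries and at 0 in all 5 OVX+FMT libraries, replicate 4 included. Each reached the filter's 3 counts in all 5 Sham libraries. Entry into the test could thus rest on the group where they are high, which limits these calls and their bounds. ASV_48 and ASV_57, both named Lachnoclostridium [Clostridium] scindens, had 25, 78, 92, 267 and 51 counts and 23, 57, 84, 275 and 24 counts in Sham replicates 1 to 5, and were at least 27.7-fold and 23.4-fold lower. ASV_54, named Kineothrix alysoides, had 76, 52, 109, 31 and 28 counts in Sham and was at least 19.9-fold lower. The edgeR adjusted p was 0.0294 for each of the 3. It was 0.0572 to 0.0809 when OVX+FMT replicate 1, 2, 3 or 5 or Sham replicate 4 was left out, and ASV_48 and ASV_57 ran together across libraries, so that they are not independent.

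ASV_56, named for the valerate-forming Oscillibacter valericigenes, was the one called higher. It was at 0 in all Sham libraries and had 119, 92, 92, 30 and 0 counts in OVX+FMT replicates 1 to 5, at least 21.6-fold higher (edgeR adjusted p = 0.0377; lost, at 0.0647 to 0.110, when any library except OVX+FMT replicate 4 was left out). ASV_81 of the same species name was at 0 in all Sham libraries and had 73, 49, 31, 27 and 169 counts in OVX+FMT replicates 1 to 5, at least 18.4-fold higher (edgeR adjusted p = 0.0516). The filter's 3 counts were reached by ASV_81 in every OVX+FMT library, and by ASV_56 in every one except replicate 5. Entry of both into the test thus leaned on the group where they are high, which limits these values. The genus Oscillibacter as a whole averaged 0.750% ± 0.299 in Sham and 1.54% ± 0.570 in OVX+FMT (SD, n = 5; edgeR adjusted p = 0.0861; 0.0668 without replicate 4). Without replicate 4, edgeR called 5 ASVs (1.32%), DESeq2 23 (6.07%) and limma 21 (5.54%). The edgeR calls added ASV_53, named Eubacterium xylanophilum. ASV_53 was at 0 in the other 4 OVX+FMT libraries and had 179 counts in replicate 4 and 53 to 148 in Sham. Its entry into the test could rest on the Sham libraries alone, which limits that call too.

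Of all ASVs, 908 were seen in Sham, 653 in OVX+FMT and 419 in both. A set of 40 was seen in all 10 libraries and held 46.4% of counts in Sham and 67.0% in OVX+FMT. The same set held 43.9% in OVX+FMT replicate 4, 62.0% in OVX and 70.2% in OVX+PBS. There were 15 ASVs seen in at least 4 Sham libraries and in no OVX+FMT library, 9 of them Lachnospiraceae, beside 48 Lachnospiraceae among all 150 ASVs seen in at least 4 Sham libraries, and together they held 3.10% of Sham counts. In untreated OVX 12 of these 15 were seen in at least 1 library, at 0.687% of counts, and in OVX+PBS 6, at 0.676%. The reverse set, in at least 4 OVX+FMT libraries and in no Sham library, had 5 ASVs, at 1.31% of OVX+FMT counts. Of these, 4 were Oscillospiraceae, beside 33 Oscillospiraceae among all 97 ASVs seen in at least 4 OVX+FMT libraries. In untreated OVX 4 of the 5 were seen in at least 1 library, at 0.542% of counts, and in OVX+PBS all 5, at 0.519%. Without regard to replicate 4, 26 ASVs were common in Sham and missing from the other 4 OVX+FMT libraries, 17 of them Lachnospiraceae; they held 5.86% of Sham counts and 5.39% of counts in replicate 4. These sets were defined by presence in the 2 groups and are descriptions with no test.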

How the data were processed

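Feces of 25 mice were profiled by PacBio full-length 16S sequencing, and the deposited table held read counts per ASV with a taxonomy, per the file headers. The submitters' processing notes name Subread, without version or role. How reads were denoised and named, and with which primers and database, is not given in the sources used here. Because the deposited counts held no value of 1, richness leaves out ASVs seen once in a library. Columns were matched to samples by name. No labels tell cages or litters, so a p-value here measures only how these libraries spread. Libraries of 1 group lay at least 0.300 apart in Bray-Curtis distance, so that none was a duplicate.

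Counts were summed per genus and family and tested with edgeR 4.0.16 (quasi-likelihood F test, TMM; R 4.3.3) over all 25 libraries in 1 fit, for taxa that reached 3 counts in 5 or more libraries, with Benjamini-Hochberg adjustment and a threshold of 0.05. Standard errors came from the F statistic. The script was tested on simulated data. Richness was computed analytically for 8498 reads, the smallest library of the series. Values of 1 number per library were compared by exact permutation tests over all splits of 5 against 5. A bound for a taxon at 0 in a group used a floor of 3 counts per library, and Wilson intervals (95%) cover counting error of reads that are not independent molecules.

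The named taxa were the phyla of at least 1% mean share, the 5 most abundant genera, taxa past the threshold with or without OVX+FMT replicate 4, genera whose groups did not overlap (up to 10 in each direction by size of the log2 fold change, with and without that replicate), and list members past the threshold; further taxa (Lacrimispora, Oscillibacter, Lactobacillus, Akkermansia, Bacteroides, Shigella, ASV_81) were chosen after their values were seen. The members and the 16 taxon lists were chosen with earlier results of these data known. Genus and species names are names of database relatives, and several ASVs can come from the 16S copies of 1 genome. Alternatives were DESeq2 1.42.0, limma 3.58.1 on centred log-ratios (0.5 added), other scalings and filters, only the 2 groups, the replicate number as a block, and leaving out each library.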

Additional observations from a re-analysis of the deposited data

Results flagged for a closer look

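Within each group of 5 libraries, the highest or lowest value was set against the group's range (Dixon's test at 95%). Of 86 groups over 43 measures 24 had a library that stood apart. The nominal rate of about 1 in 20 does not apply here. The measures share counts, and a group with 4 libraries at 0 and 1 above it is always flagged. OVX+FMT replicate 4 was that library in 12 of the 24, each time as the highest of its group. Several of its genera were named for results seen only without replicate 4, so that choice partly set its place. It held 37.3% Lachnospiraceae where the other 4 held 3.29% to 9.78%, 10.3% Kineothrix, 5.56% Lachnoclostridium, 3.14% Schaedlerella, 1.35% Butyribacter, 1.13% Hungatella, 0.685% Enterocloster and 0.211% Marvinbryantia. Its summed shares of 19.5% butyrate producers, 7.29% trimethylamine-linked genera, 9.88% acetogens and 7.44% bile acid dehydroxylating genera stood apart too, and these lists share genera with each other.

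Sham replicate 1 stood apart with a log2 ratio of Firmicutes to Bacteroidetes of 1.36 (2.66 to 2.97 in the other 4), 27.4% Bacteroidetes, 23.7% Duncaniella, 0.473% Hungatella (the lowest of its group), 1.82% Erysipelotrichaceae with relatives and 2.81% Bacteroidaceae with relatives. Sham replicate 3 stood apart as the only Sham library with Bifidobacterium and thus Bifidobacteriaceae (0.0173%), Lactococcus (0.0230%) or reagent contaminants (0.0173%), and Sham replicate 2 as the only one with sulfate reducers (0.0307%), each at 3 or 4 counts. OVX+FMT replicate 5 held 2.98% Bacteroidaceae with relatives, above the 0.970% to 1.34% of its group.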

How the results depend on the processing

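Richness, Shannon index and R2 kept their direction under every alternative run, and lost their calls when some single libraries were left out. With single libraries left out, the richness difference ran from -128.5 to -100.2, the Shannon difference from -0.796 to -0.542, R2 from 0.213 to 0.357, the log2 ratio of Firmicutes to Bacteroidetes from -1.23 to -0.66, called genera from 0 to 8, called families from 0 to 2 and called ASVs from 0 to 5. The Shannon difference was -0.520 on genus counts (adjusted exact p = 0.0529), R2 on genus shares 0.318 (adjusted exact p = 0.0635) and the mean distance to Sham on genus shares 0.390. Verrucomicrobia changed sign on centred log-ratios (-0.16) and without OVX+FMT replicate 3 (range -0.0970 to 1.98 points).

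With all libraries, called genera were 5 with TMMwsp, 6 with DESeq2, 2 with limma and, by edgeR, 0 with plain totals, without a filter, with at least 10 counts and with only the 2 groups (15, 16, 12 and 18 at an unadjusted p under 0.05). Called families were 1 with plain totals and with only the 2 groups, and 0 by edgeR with TMMwsp, without a filter and with at least 10 counts (3, 6 and 4 at an unadjusted p under 0.05; DESeq2 and limma 3 each). Called ASVs were 11 with DESeq2 and 12 with limma. Without OVX+FMT replicate 4, a set of alternatives chosen after seeing the data, called genera were 6 with plain totals, 15 with DESeq2, 17 with limma and 20 with only the 2 groups; called families were 9, 7 and 5 and called ASVs 23, 21 and 14 with the last 3. The cause of these differences was not tested. Acetivibrio changed sign with TMMwsp (0.062), with limma (0.027 and, without OVX+FMT replicate 4, 0.10) and without OVX+FMT replicate 3, 5 or Sham replicate 3 (range -0.45 to 0.087).

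Same-numbered libraries shared only a number: the correlations of their deviations were -0.103 to 0.061. With the replicate number as a block, the differences in richness (-115) and Shannon index (-0.638) and R2 (0.236) stayed the same, with adjusted exact p-values of 0.0833, 0.0833 and 0.125, where no p under 0.0625 is possible. By edgeR the block called 0 genera (10 at an unadjusted p under 0.05), 0 families (5) and 3 ASVs with all libraries, and 8, 1 and 0 (69) without OVX+FMT replicate 4. Enterocloster changed sign under the block (0.31). The depth limits genera near 3 counts, such as Lactococcus and Faecalicatena.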
